A study of Rattus norvegicus with 25 samples.

Results

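The 4 genes described here belong to the insulin-like growth factor (IGF) system: the ligands Igf1 (ENSRNOG00000004517) and Igf2 (ENSRNOG00000020369), the receptor Igf1r (ENSRNOG00000014187) and the binding protein Igfbp2 (ENSRNOG00000016957). They were picked by Ensembl gene ID, and 4 of 4 IDs were among the 29516 gene IDs of the deposited table. The table lists IDs without names, so each name is the one paired with its ID when the genes were picked. RNA was sequenced from medial prefrontal cortex, the midline front part of the cortex, of wild-type Wistar rats without treatment named in the labels. Groups were 5 libraries each from postnatal days 8, 14, 21, 35 and 70 (P8, P14, P21, P35 and P70), 25 libraries in all. Whether each library is a different animal is not given in the labels, nor is the sex, so a p-value covers the spread between libraries, which may be technical. The 25 library titles carry 15 different first numbers, of unstated meaning, and 6 of these numbers belong to 1 library only. Libraries of an age that share a number may not be independent.

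IGF1 and IGF2 are small secreted proteins, related to insulin, that promote growth, survival and differentiation of cells. Both act through IGF1R, a receptor tyrosine kinase that signals to the PI3K-AKT and MAP kinase pathways. IGF-binding proteins hold the ligands outside cells and can limit or prolong their action. In rodent brain, Igf1 RNA is known from neurons and, after birth, from glia, Igf2 RNA mainly from the meninges, choroid plexus and blood vessels, and Igfbp2 RNA from astrocytes and meninges.

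Levels are given in FPKM, read counts scaled by transcript length and by the number of reads mapped in the library. FPKM is per length, so levels of different genes can be set side by side. Values of 1 FPKM or more were found for each of the 4 genes in 25 of 25 libraries. Over the 25 libraries Igfbp2 averaged 22.1 FPKM, Igf2 5.13, Igf1r 3.86 and Igf1 2.07. Relative sequencing depth ran from 0.386 to 1.31 of the median library, lowest in P21 replicate 5 and P70 replicate 2. Whole reads could be worked back from the FPKM values of 3 of the 4 genes. Igf2 rested on 240 to 882 reads per library, Igf1r on 134 to 625 and Igfbp2 on 234 to 1649. Counting alone would give a coefficient of variation of 6.45% to 3.37% for Igf2, 8.64% to 4% for Igf1r and 6.54% to 2.46% for Igfbp2. The variance between libraries of an age was 24.3, 7.92 and 11 times that of counting in these genes. Igf1 values did not resolve into whole reads, so the depth behind them is unknown. Fewer cells of a type and less RNA per cell cannot be told apart in these tissue samples. Markers of meninges, vessels and glia were not analysed here, because their IDs are not paired with names.

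For each of the 4 genes the 5 ages differed (limma moderated F-test on log2(FPKM + 0.5), 1 fit over 14128 gene IDs, Benjamini-Hochberg adjusted p = 1.22e-05 for Igf1, 0.0107 for Igf2, 0.000806 for Igf1r and 1.73e-10 for Igfbp2). Of all 14128 gene IDs tested, 55.5% passed this test, so 4 of 4 is to be read against a common outcome. Igf1 and Igfbp2 were high at P8 and P14 and low from P21 on, Igf2 had its highest mean at P14 and its lowest at P35, and Igf1r was lowest at P14. With the FPKM totals of the libraries scaled to be equal, Igf2 and Igf1r did not pass (limma adjusted p = 0.315 and 0.785). The totals ran from 472548 in P14 replicate 2 to 1649380 in P8 replicate 2. Standard errors (SE) of log2 changes were larger with this scaling, so a call lost under it does not show that a change is absent.

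**Figure D1:**
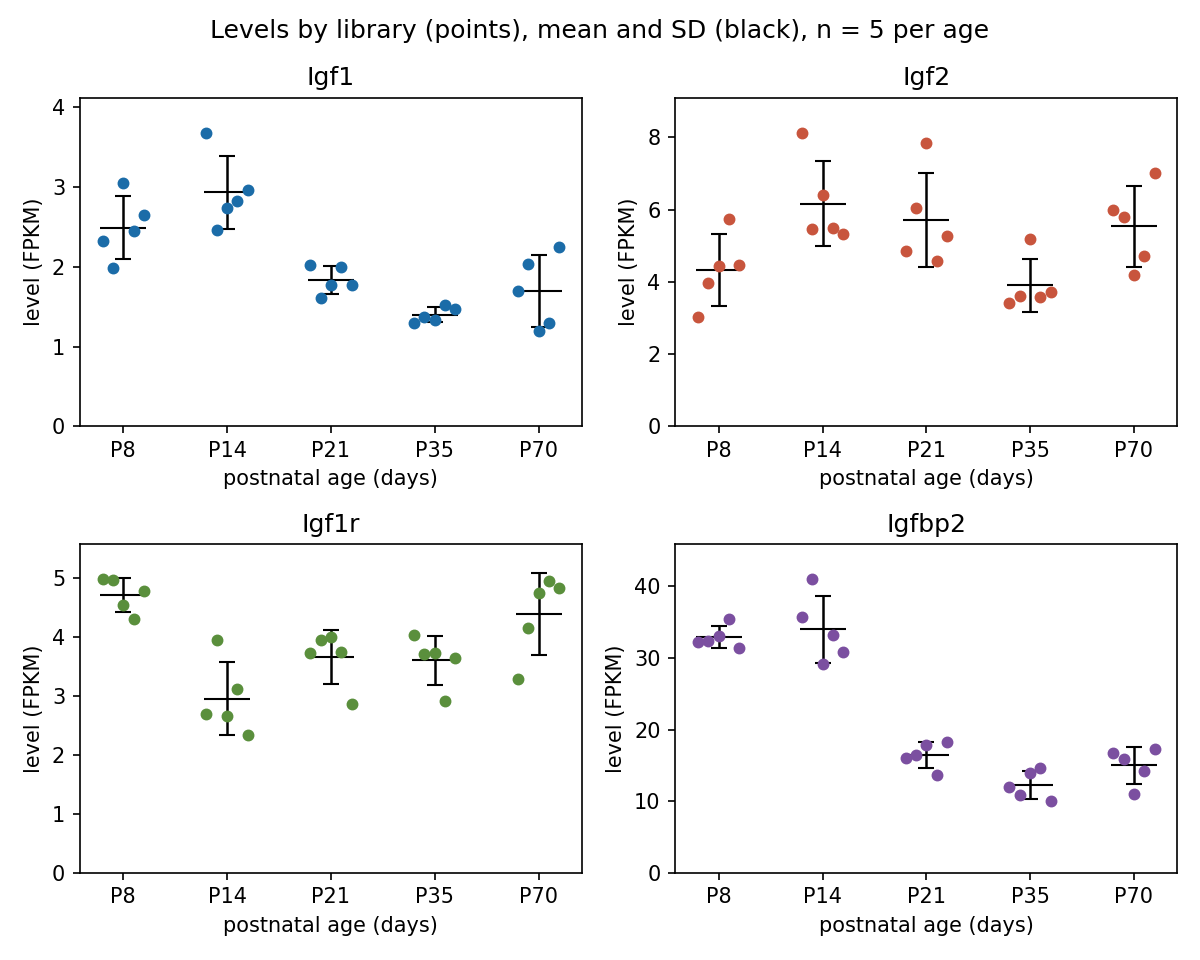
FPKM of the 4 genes (vertical axes, each from 0) at 5 postnatal ages (horizontal axes, as categories not spaced by time). Points are single libraries, black lines the mean and SD of 5 libraries. Igfbp2 lies between 29.2 and 41 FPKM in the 10 libraries of P8 and P14 and between 10.1 and 18.2 in the 15 later ones, and Igf1r has its lowest mean at P14.

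The stretches upstream of the RefSeq start sites of Igf1 and Igfbp2 are shown because the levels of these genes were high at P8 and P14 and low afterwards. They are 250 bases on the plus strand of GRCr8, at chr7:24172282-24172531 for Igf1 and chr9:81864561-81864810 for Igfbp2, and end just before the start site. Capitals mark matches, on either strand, to 4 short promoter motifs: the TATA box (TATAAA), the GC box (GGGCGG), the CCAAT box (CCAAT) and the E-box (CACGTG).
Igf1: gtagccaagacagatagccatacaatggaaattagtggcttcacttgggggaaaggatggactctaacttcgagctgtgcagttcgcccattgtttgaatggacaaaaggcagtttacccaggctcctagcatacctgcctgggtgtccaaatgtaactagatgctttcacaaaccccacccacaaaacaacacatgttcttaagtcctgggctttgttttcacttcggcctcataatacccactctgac
Igfbp2: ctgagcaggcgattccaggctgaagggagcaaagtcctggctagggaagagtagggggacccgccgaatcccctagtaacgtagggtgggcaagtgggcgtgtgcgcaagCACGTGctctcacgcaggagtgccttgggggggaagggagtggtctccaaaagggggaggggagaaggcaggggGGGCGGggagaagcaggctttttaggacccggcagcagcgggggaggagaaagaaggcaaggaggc

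The Igf1 stretch holds 0 of these motifs and is 46.8% G or C. The Igfbp2 stretch is 64% G or C, with a GC box beginning 66 bases and an E-box beginning 140 bases before the start. The corresponding stretch of Igf1r is 79.6% G or C, with a GC box at 184 bases and an E-box at 31 bases. RefSeq gives Igf2 a pair of start windows, at 62.4% and 63.6% G or C, of which the second has a GC box at 129 bases. Among 33469 upstream stretches of the same length, 30.5% hold the GC box, 5.59% the E-box, 34% the CCAAT box and 12.9% the TATA box, and the median is 51.2% G or C. These are matches of letters only, and the data do not show which start sites were used.

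Igf1, the ligand through which growth hormone acts on many tissues, had the lowest mean FPKM of the 4 genes at each age. At P14 its mean was close to that of Igf1r (2.93 ± 0.453 against 2.95 ± 0.623 FPKM, SD, n = 5), so that rank is not firm there. It fell between P14 and P21 and was below its P8 level at P70. In P8 replicates 1 to 5 it was at 2.32, 1.98, 3.05, 2.45 and 2.64 FPKM. At P14 it was at 3.68, 2.47, 2.73, 2.83 and 2.96 FPKM. The P8 and P14 ranges overlapped, and the change of 0.20 ± 0.12 on the log2 scale (SE) did not pass (limma adjusted p = 0.234). At P21 the libraries were at 2.03, 1.61, 1.77, 2.0 and 1.78 FPKM, and each of them was below each P14 library. Igf1 fell from P14 to P21, from a mean of 2.93 ± 0.453 to 1.84 ± 0.175 FPKM (± SD, n = 5; -0.55 ± 0.12 SE on the log2 scale, limma adjusted p = 0.00293). At P35 the values were 1.3, 1.37, 1.33, 1.53 and 1.48 FPKM, and the lowest P21 library was above the highest P35 library. The log2 change from P21 to P35 was -0.30 ± 0.12 (SE), with an adjusted p of 0.299 in limma, so this step did not pass over all gene IDs.

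At P70 Igf1 was at 1.69, 2.03, 1.2, 1.3 and 2.25 FPKM. The coefficient of variation was 26.8% at P70, the highest of the 5 ages, and 6.86% at P35, the lowest. From P8 to P70 Igf1 fell (log2 change -0.46 ± 0.12 SE, limma adjusted p = 0.0027), although the highest P70 library was above the lowest P8 library. The change was -0.30 relative to the median of all gene IDs tested, which was itself -0.16 over this span. With FPKM totals made equal, neither fall of Igf1 passed in limma. The log2 changes were then -0.81 ± 0.28 (SE, adjusted p = 0.174) from P14 to P21 and -0.38 ± 0.28 (SE, adjusted p = 0.412) from P8 to P70. The SE was 0.12 as deposited. The median change of all gene IDs tested was -0.38 from P14 to P21 and -0.05 from P8 to P70 with equal totals, against -0.09 and -0.16 as deposited.

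The order of Igf1 means from high to low was P14, P8, P21, P70 and P35. Of the 4 pairs of neighbours in this order, P8 and P21 had an unadjusted p under 0.05 (exact two-sided permutation test, p = 0.0238). P14 and P8 (exact permutation p = 0.127), P21 and P70 (p = 0.524) and P70 and P35 (p = 0.23) did not differ beyond the spread between libraries. Each gene had 10 such pairs of ages, 40 in all, and the p-values are not adjusted, since the genes were picked with results known. Which ages are neighbours was read from the same means, so these p-values describe the order and do not test it. The smallest p that 5 against 5 libraries can give is 0.00794.

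Igf2, the second ligand, is an imprinted gene best known for growth before birth. It rose from P8 to P14, and no other step between neighbouring ages passed. Its P8 libraries were at 3.01, 3.98, 4.43, 5.75 and 4.47 FPKM. Its P14 libraries were at 8.11, 5.47, 6.42, 5.48 and 5.32 FPKM, overlapping the P8 range only through P8 replicate 4. Igf2 rose from P8 to P14, from 4.33 ± 0.988 to 6.16 ± 1.18 FPKM (± SD, n = 5; 0.47 ± 0.16 SE on the log2 scale, limma adjusted p = 0.0304). This call was not firm: the adjusted p was 0.0726 with the first number in the library titles as a random block and 0.051 when the 10 libraries were fitted alone. It was also 0.105 without P8 replicate 1, 0.0628 without P8 replicate 2, 0.0962 without P14 replicate 1 and 0.058 without P14 replicate 3.

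At P21 Igf2 was at 4.86, 6.04, 7.83, 4.56 and 5.26 FPKM, overlapping the P14 range (log2 change -0.11 ± 0.16 SE, limma adjusted p = 0.701). The P35 libraries had the lowest mean, at 3.41, 3.6, 5.19, 3.59 and 3.73 FPKM, with replicate 3 apart from the other 4. At P70 the values were again higher, at 5.99, 5.78, 4.18, 4.70 and 7.01 FPKM. Neither the change into P35 (-0.49 ± 0.16 SE, limma adjusted p = 0.156) nor the change out of it (0.45 ± 0.16 SE, limma adjusted p = 0.736) passed over all gene IDs.

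The order of Igf2 means was P14, P21, P70, P8 and P35, and 0 of the 4 neighbouring pairs differed beyond their spread (exact permutation p = 0.548, 0.817, 0.103 and 0.476 in that order). The 2 ends, P14 and P35, did not overlap, and no test is given for this pair, picked after the order was seen. From P8 to P70 the log2 change of Igf2 was 0.33 ± 0.16 (SE, limma adjusted p = 0.0927). After median-of-ratios scaling and quantile normalization, which center the changes of all gene IDs, it was 0.47 and 0.46, with adjusted p of 0.0112 and 0.0129. It was 0.42 without P8 replicate 4 (adjusted p = 0.0336) and 0.41 without P70 replicate 3 (adjusted p = 0.0415).

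In the RefSeq annotation of assembly GRCr8, which differs from the rn4 build of the data, Igf2 overlaps the gene LOC102548568 and Mir483, and its next gene on one side is the insulin gene Ins2. Igf1r overlaps Pgpep1l and the non-coding LOC134483685. Without a stated strand setting, reads of overlapping genes may be shared, which adds uncertainty to Igf2 and Igf1r. No gene of that annotation overlaps Igf1 or Igfbp2, and Igfbp5, another binding protein gene, lies next to Igfbp2.

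Igf1r encodes the receptor that binds both ligands. It fell from P8 to P14, the step at which Igf2 rose, and no later step passed. Its P8 libraries were close together at 4.97, 4.97, 4.54, 4.30 and 4.78 FPKM. The P14 libraries were at 2.69, 3.95, 2.66, 3.12 and 2.34 FPKM, each below the lowest P8 library. Igf1r fell from P8 to P14, from 4.71 ± 0.291 to 2.95 ± 0.623 FPKM (± SD, n = 5; -0.61 ± 0.12 SE on the log2 scale, limma adjusted p = 0.000322). With FPKM totals made equal the same change was -0.38 ± 0.33 (SE, limma adjusted p = 0.679). The median change of all gene IDs tested from P8 to P14 was then 0.18, against -0.06 as deposited. The relation between Igf1r and the FPKM total within ages did not pass after adjustment (r = -0.47 over 25 deviations from age means, permutation p = 0.0252, adjusted over 8 relations 0.201; rho = -0.43, p = 0.0359, adjusted 0.287; r = -0.60 without the 2 libraries farthest in total), and the part of the totals in the P14 values was not tested.

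At P21 Igf1r was at 3.73, 3.94, 4.00, 3.74 and 2.86 FPKM. Replicate 5, the shallowest library of the series, lay below the other 4. The change from P14 to P21 was 0.28 ± 0.12 (SE) and did not pass (limma adjusted p = 0.108). It was 0.37 without P14 replicate 2 (adjusted p = 0.0249), 0.35 without P21 replicate 5 (adjusted p = 0.0414), 0.39 without the 3 libraries least like their age group (adjusted p = 0.0279) and -0.000697 with equal FPKM totals.

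P35 libraries were at 4.02, 3.72, 3.72, 2.91 and 3.64 FPKM, and P70 libraries at 3.28, 4.15, 4.75, 4.95 and 4.82 FPKM. The order of Igf1r means was P8, P70, P21, P35 and P14. No neighbours in it differed beyond their spread (exact permutation p = 0.429, 0.0873, 0.802 and 0.111 from the top). P8 and P35 did not overlap, nor did P8 and P21. Over the whole span no change of the receptor passed, with a mean of 4.39 ± 0.692 FPKM at P70 (SD, n = 5) and a log2 change from P8 of -0.10 with a 95% interval of -0.34 to 0.14 (limma adjusted p = 0.479). The sign of this change turned to 0.05, 0.03 and 0.02 under median-of-ratios scaling, quantile normalization and equal FPKM totals.

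Igfbp2, the binding protein, had the highest FPKM of the 4 genes and, from P14 to P21 and from P8 to P70, the largest log2 changes. It was high in the first 2 weeks, fell between P14 and P21 and did not return to its early level by P70. P8 libraries were at 32.3, 32.3, 33.1, 35.4 and 31.4 FPKM, and P14 libraries at 35.8, 41.0, 29.2, 33.2 and 30.9 FPKM. These 2 ages overlapped (log2 change 0.04, 95% interval -0.21 to 0.29, limma adjusted p = 0.849). At P21 the libraries were at 16, 16.4, 17.8, 13.7 and 18.2 FPKM, below each of the 10 earlier libraries. Igfbp2 fell from P14 to P21, from 34.0 ± 4.63 to 16.4 ± 1.80 FPKM (± SD, n = 5; -1.02 ± 0.12 SE on the log2 scale, limma adjusted p = 2.74e-06). Of the 14128 gene IDs, 0.927% had a more negative change in this week.

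P35 libraries of Igfbp2 were at 12, 10.8, 14.0, 14.6 and 10.1 FPKM, and P70 libraries at 16.8, 15.9, 10.9, 14.2 and 17.2 FPKM. The log2 change from P21 to P35 was -0.41 ± 0.12 (SE, limma adjusted p = 0.0906). This step passed after median-of-ratios scaling (-0.40, adjusted p = 0.00287), after quantile normalization (-0.43, adjusted p = 0.00431) and without P70 replicate 3 (-0.41, adjusted p = 0.0441). From P8 to P70 Igfbp2 fell 2.19-fold, from 32.9 ± 1.54 to 15 ± 2.56 FPKM (± SD, n = 5; -1.12 ± 0.12 SE on the log2 scale, limma adjusted p = 3.39e-08), and 5 of 5 P70 libraries were below the P8 range. That fall and the fall from P14 to P21 passed under each of the 37 alternatives run.

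The order of Igfbp2 means was P14, P8, P21, P70 and P35, the same as for Igf1. P8 and P21 had an unadjusted p under 0.05 (exact permutation p = 0.00794). P14 and P8 (exact permutation p = 0.675), P21 and P70 (p = 0.357) and P70 and P35 (p = 0.0952) did not differ beyond their spread. As for Igf1, these p-values describe the order and do not test it. The mean of Igfbp2 stood above that of 88.3% of tested gene IDs at P8 and above that of 70.4% at P35. For Igf1 the share was 27.7% at P14 and 13.7% at P35.

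**Figure D2:**
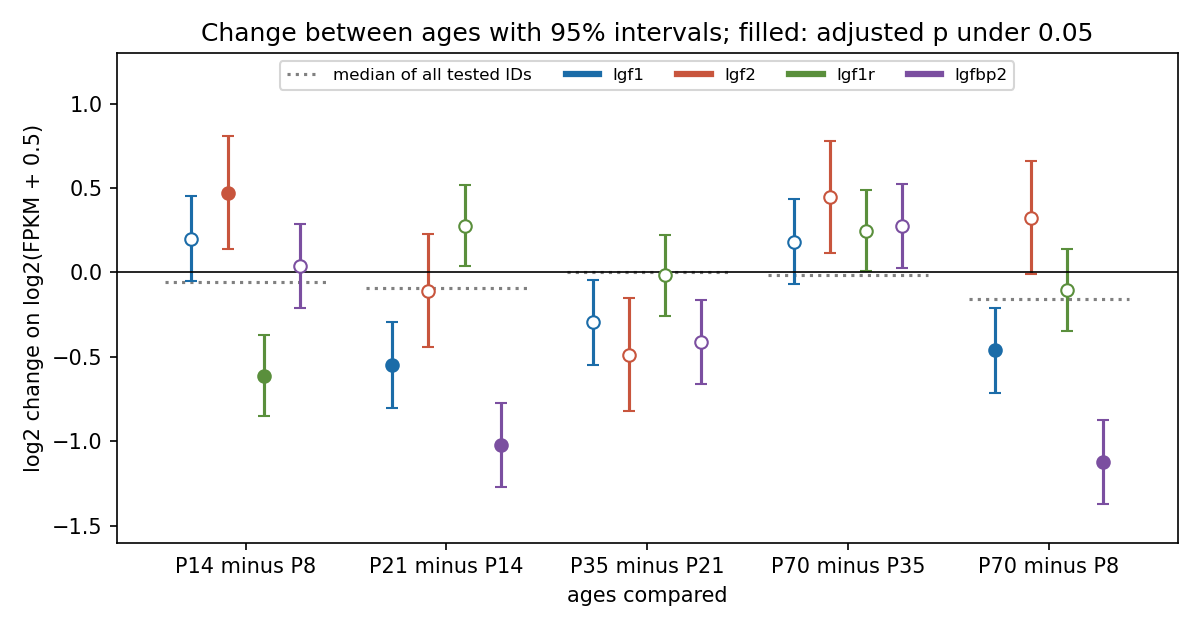
Log2 change of each gene for the 5 comparisons of ages (vertical axis, on log2(FPKM + 0.5)), with 95% intervals from the limma fit. Filled points have an adjusted p under 0.05, and dotted lines are the median of all 14128 gene IDs. Igf2 and Igf1r are filled for P14 minus P8, and Igf1 and Igfbp2 for P21 minus P14 and for P70 minus P8.

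Set side by side, the calls fell on different members. Differences between members in a step between neighbouring ages were not tested, and the call of Igf2 was not firm. From P8 to P14, 2 of the 4 genes passed, Igf2 upward and Igf1r downward, where 28.9% of all gene IDs tested passed. From P14 to P21, 2 of 4 fell, Igf1 and Igfbp2, where 12.2% of all gene IDs fell. From P21 to P35, 0 of 4 passed in limma (1.62% of all gene IDs passed), and 3 of 4 had an unadjusted p under 0.05, as 12.2% of all gene IDs did. Means of 4 of 4 were lower at P35, where 49.2% of all gene IDs had a negative log2 change, although the log2 change of Igf1r was -0.02, and 0.05 with equal FPKM totals. From P35 to P70, 0 of 4 passed in limma (0.12% of all gene IDs passed), and 3 of 4 had an unadjusted p under 0.05, as 4.69% of all gene IDs did. Means of 4 of 4 were higher at P70, where 45.5% of all gene IDs had a positive log2 change. These 2 steps share the P35 libraries, so a low P35 mean moves both. From P8 to P70, 2 of 4 fell, Igf1 and Igfbp2, where 34.6% of all gene IDs fell.

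For each comparison except P14 to P21, counts among the 4 genes were the same without the 3 libraries least like their age group. They were also the same without the 2 shallowest libraries. In the step from P14 to P21, Igf1r joined as a rise in both settings. Numbers of all 14128 gene IDs that rose and fell follow for all libraries, without the 3 and without the 2. For P8 to P14 they were 1925 and 2165, 1703 and 2184, and 1956 and 2293. For P14 to P21 they were 730 and 1728, 591 and 989, and 705 and 1609. For P8 to P70 they were 2810 and 4892, 2998 and 5275, and 2698 and 4725. With equal FPKM totals fewer gene IDs passed in all. Igfbp2 alone of the 4 fell from P14 to P21, where 0.885% of all gene IDs fell, and from P8 to P70, where 8.44% fell. From P8 to P14 the limma adjusted p was then 0.285 for Igf2 and 0.679 for Igf1r, where 3.55% of all gene IDs passed.

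Plain ratios of FPKM values within a library compare members without regard to the scaling between libraries. The ratio of Igf2 to Igf1r FPKM was 0.606, 0.80, 0.976, 1.34 and 0.937 in the P8 libraries and 3.02, 1.38, 2.41, 1.76 and 2.27 in the P14 libraries. The 2 ages did not overlap, and the mean went from 0.931 ± 0.269 to 2.17 ± 0.628 (SD, n = 5), a pair of ages picked after the levels were seen, so no test is given. At P21, P35 and P70 this ratio averaged 1.57 ± 0.323, 1.09 ± 0.219 and 1.3 ± 0.389 (SD, n = 5). The ratio of Igf1 to Igf1r also had its highest mean at P14, at 1.04 ± 0.295, against 0.532 ± 0.104 at P8 and 0.511 ± 0.0847 at P21 (SD, n = 5).

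Between P8 and P70, the ratio of members changed with an adjusted p under 0.05 in 4 of the 6 pairs (exact permutation). The adjustment covers these 6 pairs only, and the genes were picked with earlier results known. These p-values therefore describe the pairs and do not set them apart from other gene IDs. Changes in log2 ratio were taken and tested on FPKM + 0.5, so they are not logs of the plain ratios printed beside them. Unlike plain ratios, they are not free of the scaling between libraries. With 0.1 added instead of 0.5, Igf1 over Igf2 changed by -0.91 and Igf1 over Igfbp2 by 0.59. Igf2 over Igfbp2 then changed by 1.5 and Igf1r over Igfbp2 by 1.03, and the same 4 pairs passed (exact permutation, adjusted p = 0.0119 each). The ligands parted: Igf1 over Igf2 went from 0.595 ± 0.139 at P8 to 0.304 ± 0.0321 at P70 (SD, n = 5; change in log2 ratio -0.79, exact permutation p = 0.00794, adjusted over the 6 pairs 0.0119). Igf2 over Igfbp2 went from 0.131 ± 0.0255 to 0.368 ± 0.0286 (change in log2 ratio 1.45), Igf1r over Igfbp2 from 0.144 ± 0.0143 to 0.304 ± 0.0911 (1.02), and Igf1 over Igfbp2 from 0.0757 ± 0.0123 to 0.112 ± 0.0171 (0.66), each with the same exact permutation p = 0.00794 and adjusted p = 0.0119. Relative to each of the other 3 genes, Igfbp2 was lower at P70 than at P8. These 3 pairs share Igfbp2, so they are not separate results. How often pairs of other gene IDs part in this way was not examined. Of 14128 gene IDs tested, 2810 rose and 4892 fell from P8 to P70 in limma. Igf1 over Igf1r (-0.36, exact permutation p = 0.151, adjusted p = 0.151) and Igf2 over Igf1r (0.43, exact permutation p = 0.111, adjusted p = 0.133) did not pass.

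**Figure D3:**
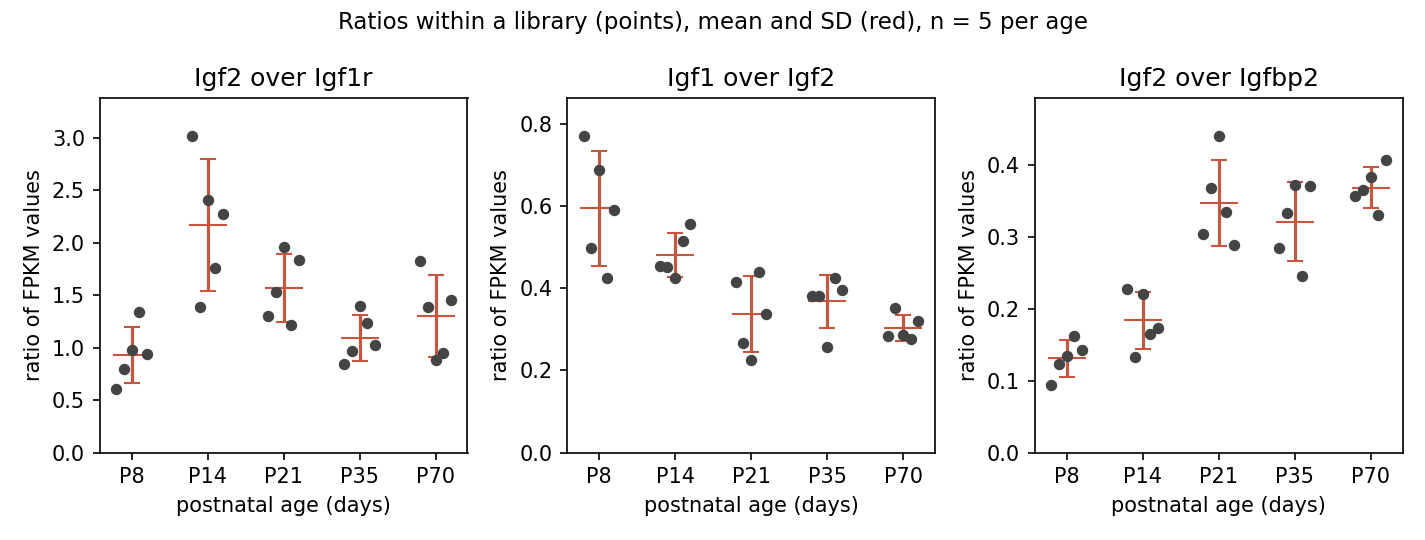
Ratio of FPKM values of 2 genes within each library (points) with mean and SD in red, n = 5 per age, for Igf2 over Igf1r, Igf1 over Igf2 and Igf2 over Igfbp2. The first ratio is highest at P14 (mean 2.17), the second goes from 0.595 at P8 to 0.304 at P70, and the third from 0.131 to 0.368.

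Members were also compared within ages, as deviations of each library from the mean of its age on log2(FPKM + 0.5), over 6 pairs of genes. The closest pair was Igf2 and Igfbp2 (Pearson's r = 0.51, n = 25, permutation p = 0.0137 with libraries shuffled within ages, adjusted over the 6 pairs 0.0823; Spearman's rho = 0.51, permutation p = 0.0155, adjusted 0.0867). Without the 2 libraries farthest from the median of Igf2, P8 replicate 4 and P21 replicate 3, r was 0.48. Median-of-ratios scaling of the libraries gave r = 0.40 (permutation, adjusted p = 0.325). By this r Igfbp2 ranked 170 of 14127 gene IDs in likeness to Igf2, and Igf2 ranked 4313 in likeness to Igfbp2, so many other gene IDs followed Igfbp2 more closely. Igf1 and Igf1r had r = -0.34 (permutation p = 0.171) and rho = -0.50 (permutation p = 0.0289, adjusted 0.0867). In all, 0 of the 6 relations passed after adjustment.

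**Figure D4:**
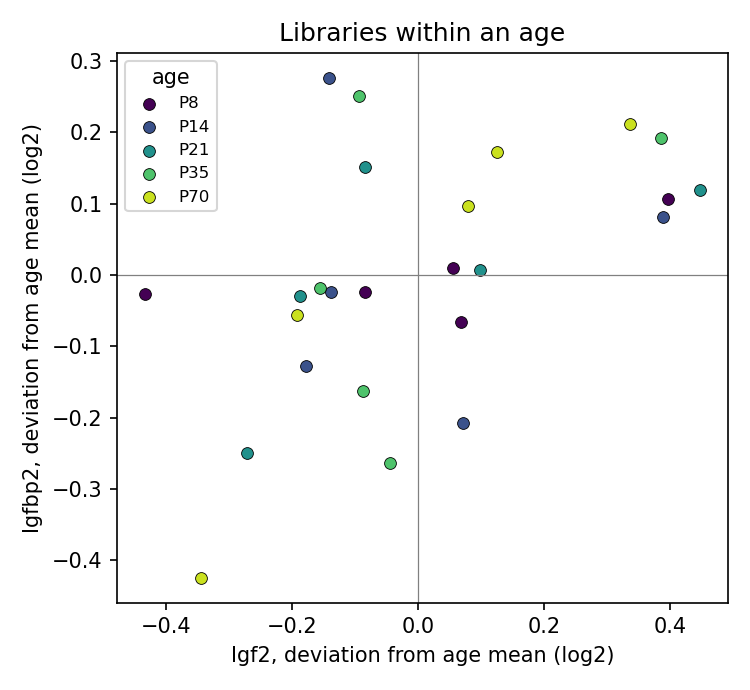
Deviation of Igfbp2 from the mean of its age (vertical axis, log2) against that of Igf2 (horizontal axis, log2), 1 point per library, 25 in all, colored by age. The points run from lower left to upper right (r = 0.51, not passing after adjustment) with wide scatter, and the lowest Igfbp2 point is a P70 library.

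The likeness of each profile to all other gene IDs was described by Pearson's r over the 25 libraries, where libraries of an age share that age. Igfbp2 had 1545 of 14127 gene IDs at an r of 0.8 or more, the closest being ENSRNOG00000031849 (r = 0.96, from 9.99 ± 0.715 FPKM at P8 to 4.96 ± 0.494 at P70, SD, n = 5). Igf1 had 158, the closest being ENSRNOG00000009465 (r = 0.89, from 1.89 ± 0.149 FPKM at P8 through 2.84 at P14 to 1.03 ± 0.159 at P70, SD, n = 5). Igfbp2 itself ranked 13 of 14127 in likeness to Igf1 (r = 0.86). Igf1r had 1 gene ID at that level (r = 0.82) and Igf2 had 0, its closest reaching r = 0.77. Few gene IDs thus reached that r with Igf2 or Igf1r. Spread between libraries of an age also lowers r, and the coefficient of variation of Igf2 within ages was 18.7% to 22.9%. The low counts therefore do not show that their course over the ages is rare. Within ages, the relation of Igf1 and Igfbp2 did not pass (r = 0.29, permutation p = 0.266, adjusted 0.399; rho = 0.18, permutation p = 0.455, adjusted 0.546), and its sign turned after median-of-ratios scaling (r = -0.13) and without P70 replicates 3 and 5 (r = -0.019).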

How the data were processed

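Per the labels' protocols, total RNA was depleted of ribosomal RNA and sequenced as single-end reads. The authors deposited FPKM values for each library, with rows named by Ensembl gene ID. Alignment to rn4 used GSNAP per the labels' protocols, while the submitters' processing notes name BWA 0.6.1, bedtools and Cufflinks without roles. No source used here states the annotation release, strand setting or filters. FPKM is relative, so abundant transcripts lower all other values of a library.

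Columns were matched by sample title, and replicate numbers follow accession order. Gene IDs reaching 1 FPKM in 5 or more of the 25 libraries (14128) were tested on log2(FPKM + 0.5) with limma 3.58.1 in R 4.3.3: 1 mean per age, 20 residual degrees of freedom, empirical Bayes with trend, two-sided, Benjamini-Hochberg over all tested IDs, called under 0.05. Log2 changes on this scale understate those of low values. Single comparisons used exact permutation (5 against 5), and correlations 100000 shuffles within ages. The main fit and these permutations treated libraries that share a first title number as independent. Permutations that keep such libraries together were not run. Exact tests of levels are printed unadjusted, although adjustment over the genes had been planned.

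Whole reads were sought by scaling FPKM to relative depth, with a tolerance of 0.05 reads. The script was tested on simulated data. Sequences come from RefSeq GRCr8, matched by symbol (4 of 4 genes). 0 rows of that table carry Ensembl IDs, so the pathway and cell type lists could not be matched. All 4 genes are always named. For likeness the rule listed the 5 closest IDs per gene, of which at most 2 unnamed IDs per direction are printed. The genes and lists were chosen with earlier results of these data known.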

Additional observations from a re-analysis of the deposited data

Results flagged for a closer look

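The gap between an extreme library and its nearest neighbour was set against the range of the group for 4 genes at 5 ages, 20 groups in all. Chance gives about 1 large gap in 20 groups, and 2 were found. Igf2 was at 5.19 FPKM in P35 replicate 3, against 3.41 to 3.73 FPKM in the other P35 libraries. Igf1r was at 2.86 FPKM in P21 replicate 5, the library of lowest depth, against 3.73 to 4.0 FPKM in the other P21 libraries.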

How the results depend on the processing

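Alternatives were pseudocounts of 0.1 and 1, other filters, 3 scalings, fits of 2 ages alone, no mean trend, a random block and leaving out each library. Leaving out the 3 libraries of lowest same-age correlation, or the 2 shallowest, was chosen after seeing the data. Both falls of Igfbp2, from P14 to P21 and from P8 to P70, kept direction and call in 37 of 37 settings. For the values that follow, the cause of the difference was not tested.

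With equal FPKM totals the log2 change of Igf1 was -0.81 (P14 to P21) and -0.38 (P8 to P70) and of Igf2 0.71 (P8 to P14, F = 2.11 over ages), and Igf1r was at -0.38 (P8 to P14, F = 0.749), all not passing, while Igf1r was at -0.000697 (P14 to P21), 0.046 (P21 to P35) and 0.017 (P8 to P70). With median-of-ratios scaling Igf2 (0.47) and Igf1r (0.049) from P8 to P70 and Igfbp2 from P21 to P35 (-0.40) differed, and the correlation of deviations of Igf1 and Igfbp2 was -0.13. It was -0.019 without the 2 libraries farthest in Igf1. Quantile normalization gave 0.46, 0.034 and -0.43 for the same 3 changes. These scalings moved the median change of all gene IDs from P8 to P70 from -0.16 to -0.01 and -0.02. Equal FPKM totals moved it to -0.05. They also moved the median from -0.06 to 0.18 for P8 to P14 and from -0.09 to -0.38 for P14 to P21.

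Fitting P8 and P14 alone gave Igf2 0.47 (adjusted p = 0.051 in limma). With libraries blocked at random by the leading number of their titles (consensus correlation 0.33), Igf2 was at 0.49 from P8 to P14 (adjusted p = 0.0726 in limma) and Igf1r at 0.00314 from P21 to P35. No paired analysis was possible because no first title number occurs at more than 1 age. Without the 3 least correlated libraries Igf1r from P14 to P21 was 0.39 and Igfbp2 from P8 to P14 -0.012. Without the 2 shallowest, Igf1r from P14 to P21 was 0.35.

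Leaving out single libraries gave ranges of 0.36 to 0.57 for Igf2 from P8 to P14 and 0.22 to 0.42 from P8 to P70. For Igf1r they were 0.21 to 0.37 from P14 to P21 and -0.091 to 0.049 from P21 to P35. For Igfbp2 they were -0.031 to 0.089 from P8 to P14 and -0.47 to -0.34 from P21 to P35. A filter at a mean of 5 FPKM gives no value for Igf1 and Igf1r. Planned pathway and marker lists were not analysed here. The depth behind Igf1 is unknown.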

Other observations

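At P70 the libraries stood apart in the same way for several genes. Replicates 3 and 4, which share the first number of their titles, had the lowest Igf1 (1.2 and 1.3 FPKM, against 1.69 to 2.25), the lowest Igf2 (4.18 and 4.70, against 5.78 to 7.01) and the lowest Igfbp2 (10.9 and 14.2, against 15.9 to 17.2). Their Igf1r was at 4.75 and 4.95 FPKM, against 3.28, 4.15 and 4.82. Their median-of-ratios scaling factors were also the lowest at P70, at 0.83 and 0.905, against 0.967 to 1.09. The part of scaling in this pattern was not tested. The correlation of deviations of Igf1 and Igfbp2 was -0.13 after median-of-ratios scaling, against 0.29 as deposited. It covers all 25 libraries and does not show how the P70 libraries rank after scaling.

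One read of Igfbp2 was worth 3.55 times the FPKM of a read of Igf2 and 3.64 times that of a read of Igf1r. On a scale per length, this corresponds to gene models of Igf2 and Igf1r that are 3.55 and 3.64 times as long as that of Igfbp2.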
